A study of Homo sapiens with 30 samples.

Results

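The data described here are 4 of the series' 30 4C-seq libraries. They are 2 libraries of S2 mutant cells and 2 libraries of WT cells, all made from the NOTCH1 promoter viewpoint. They were chosen by their titles, and from each table the read counts on chromosome 9 that lay over 5 kb from the viewpoint centre (hg19 position 139443268) were used. All groups are K562, an established human line from a chronic myelogenous leukemia, labelled bone marrow, and no treatment is listed for any of them. S2 is one of the CTCF sites near NOTCH1 that the study altered. The labels do not say what the S2 mutation is, how it was made, or whether the mutant cells are 1 clone or a pool. The same viewpoint was also profiled in S4, S5 and S4-S5 mutant cells (6 libraries), whose labels name no change at S2. Those libraries serve here as an additional comparison.

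4C-seq fixes, digests and ligates chromatin, then amplifies whatever was joined to 1 chosen fragment, the viewpoint. A read count at a restriction fragment end therefore reflects how often that end was ligated to the viewpoint. NOTCH1 encodes a transmembrane receptor of the Notch pathway, whose cleaved intracellular part acts in the nucleus as a transcriptional activator. CTCF is a zinc-finger protein that binds DNA in an oriented way and, with cohesin, marks many loop anchors and domain borders. Loss of a CTCF site can alter which sequences a promoter contacts, and the comparison asks what the promoter contacted in cells with the S2 mutation.

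The promoter lies between S2 and S4. Taken as the most covered 5-kb window of the libraries of each viewpoint, S2 was at hg19 chromosome 9, 139383372 to 139388371, centred 57.4 kb centromeric of the promoter. S4 was at 139521246 to 139526245, centred 80.5 kb telomeric of it. NOTCH1 is read from the minus strand, so its transcribed part leads from the promoter towards S2. In RefSeq's GRCh38.p14 gene order, SEC16A, which encodes a protein of endoplasmic reticulum exit sites, is the next protein-coding gene beyond NOTCH1 on the S2 side. EGFL7, which encodes a secreted protein of endothelial cells, is the next one on the S4 side. Exon, intron and UTR positions in hg19 and the position of S5 were not given in the sources used here.

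The promoter that names the viewpoint is shown as its reference sequence. Its place relative to the viewpoint fragment in hg19 was not determined, so it does not show what the assay could cut at that fragment. It is 300 bases of the minus strand in RefSeq's GRCh38.p14, chr9:136545999-136546298, written 5′ to 3′, with capitals marking each match of CCCTC on either strand (GAGGG when read on the strand shown). CCCTC gave CTCF its name.
NOTCH1 promoter: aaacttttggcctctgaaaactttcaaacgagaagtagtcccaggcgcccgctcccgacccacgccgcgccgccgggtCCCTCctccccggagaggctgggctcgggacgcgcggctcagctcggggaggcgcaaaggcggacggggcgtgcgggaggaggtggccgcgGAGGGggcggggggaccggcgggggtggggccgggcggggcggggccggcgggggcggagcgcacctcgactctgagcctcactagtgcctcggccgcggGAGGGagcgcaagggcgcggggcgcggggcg
GC made up 77.0% of these bases. The stretch held no GATC (the DpnII site), no CATG (the NlaIII site) and no GTAC (the CviQI site), the enzymes named in the protocol. Each of these motifs is its own reverse complement, and each was present in 41.7%, 54.9% and 29.8%, in that order, of the 35116 RefSeq promoters of the same length. CCCTC or GAGGG began at positions 79, 170 and 270, and 71.2% of the promoters held at least 1 match. These matches describe the letters only.

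Depth and the share of reads at the viewpoint itself differed between the groups. Chromosome 9 held 5417204 and 5681351 reads in the S2 mutant libraries, against 1437870 and 2314930 in the WT libraries. A single end 1.2 kb from the viewpoint centre took 98.3% of the reads in each S2 mutant library, against 62.1 and 61.4% in WT. A further end, 1.97 kb from the centre, took 0.0208 and 0.0185% of S2 mutant reads, against 14.3 and 14.4% of WT reads, and 0.0306 to 0.142% in the 6 libraries of the other mutants. Outside 5 kb, 76932 and 81895 reads were left in the S2 mutant, against 318591 and 525512 in WT. WT thus stood apart from all mutants in the reads at its own viewpoint. The S2 mutant in turn stood apart from the other mutants. In their 6 libraries the first end took 86.5 to 95.7% of reads, and 205270 to 743011 reads were left outside 5 kb. The part of these differences in the comparisons with WT and with the other mutants was not tested. Which second enzyme served this viewpoint, and whether it was the same in WT and mutants, is not stated in the labels. The marks blind and non-blind, the covered ends and differences at single ends all depend on that enzyme.

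The comparison was read against WT first and against the S4, S5 and S4-S5 mutants second. Both comparisons use the same S2 mutant libraries. Nothing in the labels says that the 2 libraries of a genotype came from separate cultures, so p-values reflect only how far these libraries lie apart, a spread that may be technical. Reads carry no molecular identifiers and are not independent ligation events.

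In S2 mutant cells the promoter kept a larger part of its contacts close by. Reads within 500 kb of the viewpoint and outside 5 kb, called near-cis here, were 83.9 and 84.0% of the reads outside 5 kb in the S2 mutant, against 66.7% in each WT library. The difference was 17.3 percentage points, with an SD of 0.067 in the S2 mutant and 0.0523 in WT (n = 2 each). The groups did not overlap, but the 6 libraries of the other mutants had 82.6 to 85.7%, a range that holds both S2 mutant values. Within near-cis, 51.7% of S2 mutant reads lay within 50 kb in each library, against 44.9% in each WT library. The other mutants had 51.4 to 57.0%. On these broad measures the S2 mutant was thus set apart from WT but lay among the other mutants or close to them.

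Near-cis reads numbered 64583 and 68827 in the S2 mutant and 212633 and 350347 in WT. They were split into 8 regions that follow the sites: 20 kb around S2 and S4, the stretches between each site and the promoter, the 90 kb beyond each site, and the rest of the window on each side. With 2 libraries against 2, the exact two-sided permutation test cannot give a p below 0.333, which is the value it gave for each of the 8 regions. Size and spread carry these comparisons.

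The stretch between S2 and the promoter, the side into which NOTCH1 is transcribed, took a larger share of contacts in the S2 mutant. It held 23.1 and 23.0% of near-cis reads in the S2 mutant, against 17.3 and 17.2% in WT (log2 ratio 0.42). Among the other mutants the highest library had 19.9% and the lowest 17.9%. Both S2 mutant libraries thus lay above all 8 other libraries, and the log2 ratio against the mean of the other mutants was 0.27. It was the only one of the 8 regions in which the S2 mutant lay above every other library.

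The stretch from the promoter to S4, the side of EGFL7, also had a larger share than in WT. It held 38.6 and 38.7% in the S2 mutant, against 34.5 and 34.4% in WT (log2 ratio 0.17). The other mutants had still more, from 39.2 to 44.5%, and against their mean the ratio was -0.13. The direction on this side thus depends on which cells the S2 mutant is set against.

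The 20 kb around S2 itself held almost the same share as in WT. They took 5.67 and 5.74% in the S2 mutant, against 5.58 and 5.59% in WT, a log2 ratio of 0.03. The other mutants ranged from 5.46 to 8.25%, and the 8.24 to 8.25% at the top of that range came from the S5 mutant. The 20 kb around S4 held 3.92 and 4.16% in the S2 mutant, against 4.70 and 4.72% in WT (log2 ratio -0.22). The other mutants had 5.00 to 6.04% there, so the S2 mutant had the lowest share around S4 of all 10 libraries. Scaled to all reads outside 5 kb, however, the ratio around S4 against WT was 0.11.

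Beyond the sites the S2 mutant had smaller shares of near-cis reads than WT. The 90 kb centromeric of S2 held 6.12 and 5.95% in the S2 mutant, against 9.23 and 9.28% in WT (log2 ratio -0.62), and the other mutants had 5.70 to 6.71%. The 90 kb telomeric of S4 held 8.91 and 8.80%, against 10.4% in each WT library (log2 ratio -0.23), with 6.59 to 10.7% in the other mutants. The far telomeric region held 5.83 and 5.80%, against 8.89% in each WT library (log2 ratio -0.61), with 5.27 to 5.98% in the other mutants. In these 3 regions the S2 mutant lay below WT and inside the range of the other mutants. The far centromeric region held 7.83 and 7.81% in the S2 mutant, against 9.43% in each WT library, a log2 ratio of -0.27. That was still above the 4.59 to 7.12% of the other mutants, so there the S2 mutant lay between WT and the other mutants. Scaled to all reads outside 5 kb, however, the 90 kb telomeric of S4 and the far centromeric region were slightly higher than in WT.

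**Figure D1:**
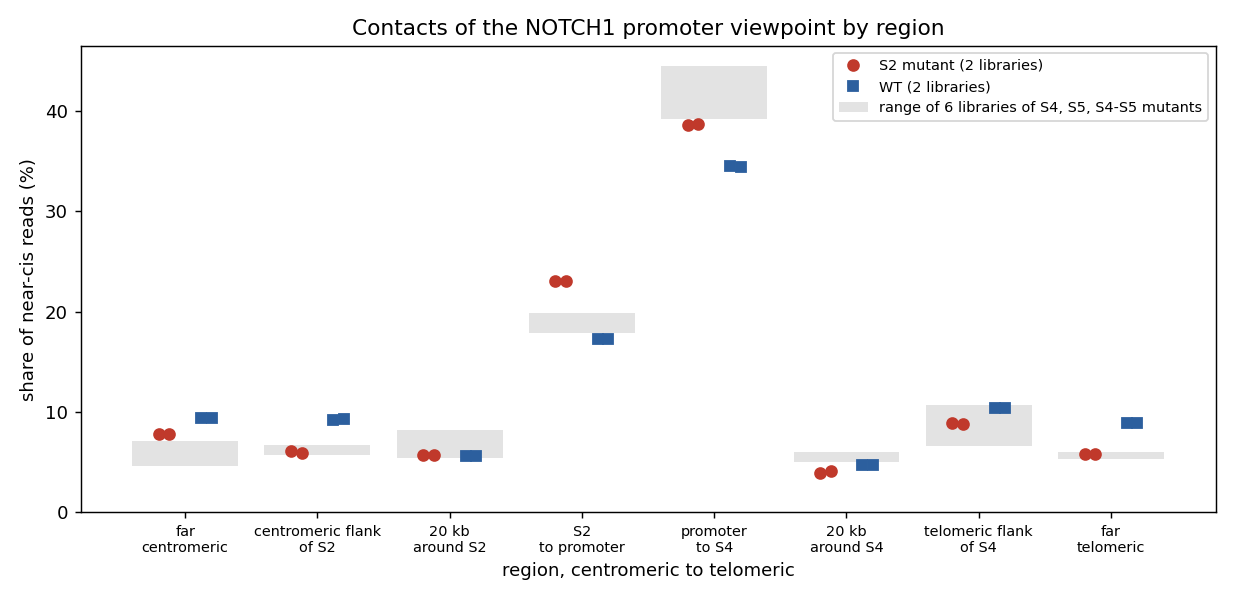
Share of near-cis reads (%) in each of 8 regions, ordered from centromeric to telomeric, with the 2 S2 mutant libraries as circles, the 2 WT libraries as squares and the range of the 6 libraries of the S4, S5 and S4-S5 mutants as grey bars. Between S2 and the promoter the S2 mutant (23.1 and 23.0%) lies above WT (17.3 and 17.2%) and above the grey range, and around S4 it lies below both.

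Cutting the window by distance in place of sites gave a finer view of the centromeric side. From 5 to 20 kb centromeric of the promoter, the S2 mutant had 9.79 and 9.88% of near-cis reads, against 7.26 and 7.30% in WT. From 20 to 50 kb it had 13.3 and 13.2%, against 11.1% in each WT library. From 50 to 100 kb, a class that holds S2, it had 10.2 and 10.1%, against 8.69 and 8.54%. In all 3 classes the S2 mutant also lay above the other mutants, whose highest libraries had 9.61, 12.5 and 9.61%. The next class, 100 to 200 kb centromeric, turned the other way: it held 3.21 and 3.22% in the S2 mutant, against 7.01 and 7.12% in WT, a log2 ratio of -1.14. The other mutants had 3.98 to 4.42% there, so the S2 mutant was the lowest of all. By these class totals, the S2 mutant lay above every other library in the 3 classes up to 100 kb and below every other library from 100 to 200 kb. Single bins within a class differ from its total: those from 139340001, 139350001 and 139390001, which lie within 100 kb, were lower than in WT.

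The telomeric side had no such order. From 5 to 20 kb the S2 mutant had 19.6 and 19.4%, against 14.9% in each WT library, and the other mutants had 20.3 to 24.4%. From 20 to 50 kb it had 8.96 and 9.22%, against 11.7 and 11.5% in WT, below the 9.63 to 11.7% of the other mutants. From 200 to 500 kb it had 4.41 and 4.28%, against 7.89 and 7.85% in WT and 4.33 to 4.91% in the other mutants. Of all near-cis reads, the telomeric side took 57.3 and 57.4% in the S2 mutant, against 58.5 and 58.4% in WT. In the other mutants it took 60.9 to 65.4%, so the S2 mutant had the lowest telomeric share of the 10 libraries.

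Within the window, 96 bins of 10 kb had a mean of at least 10 reads per library and were tested in a fit of the 10 promoter libraries. With edgeR's quasi-likelihood test, 91 of the 96 bins (94.8%) differed between S2 mutant and WT at a Benjamini-Hochberg adjusted p under 0.05. Of them 27 (28.1%) were higher and 64 (66.7%) lower in the S2 mutant, and 54 (56.2%) differed at least 2-fold. In 92 bins (95.8%) the 2 libraries of each group did not overlap with those of the other. Since nearly every bin passed, passing by itself sets no bin apart. Against the other mutants 86 bins (89.6%) differed, 36 (37.5%) higher, 50 (52.1%) lower and 53 (55.2%) at least 2-fold. The 2 comparisons share the S2 mutant libraries, so their calls are not independent and are given side by side. Of the 27 bins higher than in WT, 23 were also higher than in the other mutants, 2 were lower and 2 did not pass. Of the 64 lower ones, 48 were also lower, 8 were higher and 8 did not pass. In 20 of the 27 and in 42 of the 64, both S2 mutant libraries lay beyond all 8 other libraries.

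The balance of higher and lower bins depends on the scaling. With TMM factors 37 bins were higher and 52 lower, and with DESeq2 and its size factors 49 were higher and 41 lower. Scaled to all reads outside 5 kb, 33 were higher and 59 lower. The median log2 ratio over the 96 bins was -0.93 with near-cis totals and 0.16 with DESeq2, a shift that applies to every bin below.

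In bin totals, the gain between S2 and the promoter was shared by all 4 bins there. Each total was higher than in WT and than in the other mutants. The bin from 139410001, 28.3 kb from the viewpoint, had 6.41 and 6.15% of near-cis reads in the S2 mutant, against 4.05 and 4.03% in WT. Its log2 fold change was 0.64 ± 0.02 (SE), with an adjusted p of 3.7e-74 from edgeR's quasi-likelihood test. The bin from 139430001, 8.3 kb away, had 7.82 and 7.81%, against 5.28 and 5.32% (log2 fold change 0.56). The bin from 139420001 had 3.27 and 3.50%, against 2.33 and 2.31% (log2 fold change 0.54), and the bin from 139400001 had 5.07 and 5.05%, against 4.59 and 4.57% (log2 fold change 0.14). In each of the 4 bins both S2 mutant libraries lay above all 8 other libraries. Against the other mutants the log2 fold changes were 0.52, 0.23, 0.25 and 0.25 in the same order of bins. Single ends weighed on these totals too. The end at 139404224 had 1.51 and 1.37% in the S2 mutant, against 0.139 and 0.143% in WT. That exceeds the whole gain of its bin, from 139400001, so the rest of that bin held less than in WT. The bin from 139430001 holds the ends at 139430463 (1.82% in each S2 mutant library, against 0.397 and 0.410%) and 139438165 (1.24 and 1.38%, against 0.602 and 0.638%).

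The bins at S2 moved apart. The bin that holds the S2 centre, from 139380001, had 4.14 and 4.27% in the S2 mutant, against 3.26 and 3.22% in WT (log2 fold change 0.38 ± 0.03, adjusted p 2.24e-34 with edgeR's quasi-likelihood test). The other mutants ranged from 3.03 to 5.40% in this bin, which holds the S2 mutant values. Its end at 139386561 had 1.02 and 1.14% in the S2 mutant, against 0.106 and 0.116% in WT. That difference was about the size of the bin's whole gain, so the rest of the bin was near its WT total. The neighbouring bin on the promoter side, from 139390001, had 1.63 and 1.67%, against 2.86 and 2.91% in WT (log2 fold change -0.81 ± 0.04), and 2.44 to 3.71% in the other mutants. It was lower than in all 8 other libraries, yet with DESeq2 its log2 fold change was 0.28. In that bin 60.1% of the S2 mutant reads came from 1 fragment end, against 13.2% of WT reads.

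Telomeric of the promoter, gains and losses lay side by side. The bin from 139450001, 11.7 kb away, was the strongest contact of the window in both groups, with 17.0 and 16.9% in the S2 mutant, against 10.7% in each WT library (log2 fold change 0.66). It was lower than the mean of the other mutants (log2 fold change -0.06), so the gain there was not particular to the S2 mutant. The next bin, from 139460001, had 6.44 and 6.54% in the S2 mutant, against 6.45 and 6.33% in WT, and did not pass (adjusted p 0.237 with edgeR's quasi-likelihood test). The bins from 139470001, 139480001 and 139490001 had log2 fold changes of -0.25, -0.89 and -0.40, all past the test. With DESeq2 all 3 reversed, to 0.83, 0.19 and 0.68, and the first of them reversed also with TMM and when scaled to all reads outside 5 kb. The third reversed with TMM as well. The bin from 139480001 had 1.76 and 1.72% in the S2 mutant, against 3.21 and 3.25% in WT and 3.09 to 3.72% in the other mutants.

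Nearer to S4 a strong gain stood beside a strong loss. The bin from 139500001, 61.7 kb away, had 6.44 and 6.16% in the S2 mutant, against 3.73 and 3.71% in WT (log2 fold change 0.76 ± 0.02) and 3.98 to 6.10% in the other mutants. The bin after it, from 139510001, had 2.22 and 2.45%, against 4.25 and 4.30% in WT (log2 fold change -0.87 ± 0.03) and 3.73 to 4.52% in the other mutants. Both lay beyond all 8 other libraries, in opposite directions, though with DESeq2 the loss became a gain of 0.21. The bin that holds the S4 centre, from 139520001, had 1.97 and 2.12%, against 1.93 and 1.88% (log2 fold change 0.11, adjusted p 0.00357 with edgeR's quasi-likelihood test). It did not pass without S2 mutant replicate 2 (adjusted p 0.233) or without WT replicate 2 (adjusted p 0.0544). Against the other mutants it was lower (log2 fold change -0.36).

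Changes of at least 2-fold were nearly all far from the viewpoint. Of the 54 such bins, 53 were over 100 kb away, where 76 of the 96 tested bins lie. The exception was the bin of the viewpoint itself, of which 4 ends lay outside 5 kb. In the far telomeric region 25 of 32 bins were lower than in WT, 23 of them at least 2-fold, against 7 higher, and in the far centromeric region 20 of 31 were lower, 17 of them at least 2-fold, against 8 higher. The median log2 fold change was -3.83 over the far telomeric bins and -1.08 over the far centromeric ones. The totals of the 2 regions, which weight bins by their reads, had log2 ratios of -0.61 and -0.27.

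The bins with the lowest fitted values had almost no S2 mutant reads. The bin from 138940001, at the centromeric end of the window, had 0 reads in the S2 mutant libraries against 89 in WT, at least 7.03-fold lower when 3 reads are allowed over both S2 mutant libraries. Its fitted value depends on the prior count, and other bins fell further by their reads. The bin from 138970001 had 2 reads in the S2 mutant against 972 in WT. Telomeric of the promoter, the bin from 139880001 had 5 against 1509 reads (log2 fold change -6.14, but -5.51 without S2 mutant replicate 1 and -7.39 without replicate 2), and the bin from 139840001 had 10 against 2682. The bin from 139070001 had 5 against 1094. Shares of WT near-cis reads in these 5 bins were at most 0.483% in any library, so each was a minor contact of the promoter in WT too. Among bins with at least 0.2% of WT reads, those that fell most on the centromeric side were the one from 139100001 (0.0108 and 0.0131% in the S2 mutant, against 0.428 and 0.426% in WT) and the one from 139290001 (0.0263 and 0.0232%, against 0.799 and 0.853%). In both, the S2 mutant was also below the lowest of the other mutants, which had 0.132 and 0.275%. In the telomeric flank of S4 the bin from 139570001 had 0.223 and 0.216%, against 0.722 and 0.744% (log2 fold change -1.74).

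The bins that rose most were also far out. The bin from 139930001, 491.7 kb telomeric, had 1.08% in each S2 mutant library, against 0.246 and 0.261% in WT (log2 fold change 2.08 ± 0.07, adjusted p 4.01e-79 with edgeR's quasi-likelihood test). The bin from 139220001, 218.3 kb centromeric, had 1.13 and 1.05%, against 0.286 and 0.278% (log2 fold change 1.96). The bin from 139160001 had 0.749 and 0.689%, against 0.190 and 0.203% (log2 fold change 1.86). In these 3 bins the S2 mutant also lay above the other mutants, whose highest libraries had 0.236, 0.457 and 0.280%. The bin from 139630001 had 1.30 and 1.38%, against 0.452 and 0.476% (log2 fold change 1.52), and here too the other mutants stayed lower, at 0.286 to 0.429%.

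Several of these gains rest on single fragment ends. In the bin from 139710001 (log2 fold change 1.87) 1 end gave 98.7% of the S2 mutant reads, and without the blind ends, those of fragments that lack a site of the second enzyme, the log2 fold change was -4.14. The leading end gave 50.3% of S2 mutant reads in the bin from 139930001, 65.4% in that from 139220001, 68.7% in that from 139160001 and 49.5% in that from 139630001, against 16.6 to 35.9% of WT reads. Over all tested bins with reads, the median share of a bin's reads from its leading end was 48.2% in the S2 mutant and 23.9% in WT. That end gave over 50% of the reads in 44 of 95 bins in the S2 mutant and in 4 of 96 in WT.

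**Figure D2:**
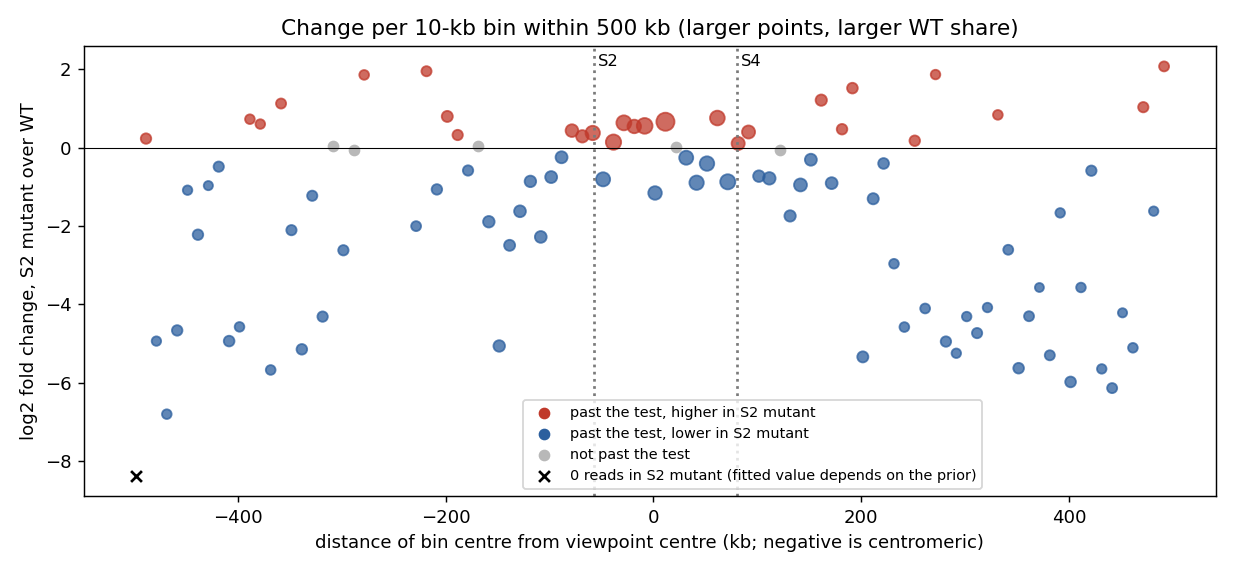
Log2 fold change of the S2 mutant over WT for each of the 96 tested 10-kb bins, by distance of the bin centre from the viewpoint centre (kb), with point area growing with the WT share, bins past the test in red (27 higher) and blue (63 of the 64 lower), 5 bins not past it in grey, and a cross for the bin with 0 S2 mutant reads. Changes within 100 kb are small beside those further out, where most bins are lower and a few higher.

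The concentration on few ends held across the window. Of 3008 near-cis fragment ends, 1013 and 1039 had a read in the S2 mutant, against 1628 and 1661 in WT. Brought to a common depth of 64583 reads by expectation, the numbers were 1013 and 1016 in the S2 mutant, against 1465 and 1454 in WT, so the gap remained when the near-cis read total was matched. The number of ligated molecules behind the reads is not known and was not matched. The S5 mutant also had 1016 and 1022 at that depth, while the S4 mutant had 1209 and 1224 and the S4-S5 mutant 1393 and 1395. The number of covered ends thus did not separate the S2 mutant from the S5 mutant.

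By the spread of reads over those ends, the S2 mutant did stand apart. Its libraries also had the fewest reads outside 5 kb of the 10 and the largest share at the viewpoint. The part of that in the spread was not tested. Its 100 most covered ends held 66.1 and 66.3% of near-cis reads, against 38.1 and 37.9% in WT and 47.8 to 48.7% in the other mutants. The 10 most covered held 13.7% in each S2 mutant library, against 7.72 and 7.71% in WT. It took 63 ends to reach 50% of the reads in each S2 mutant library, against 163 and 165 in WT and 106 to 110 in the other mutants. The effective number of ends, the inverse of the sum of squared shares, was 166 and 167 in the S2 mutant and 430 and 432 in WT.

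**Figure D3:**
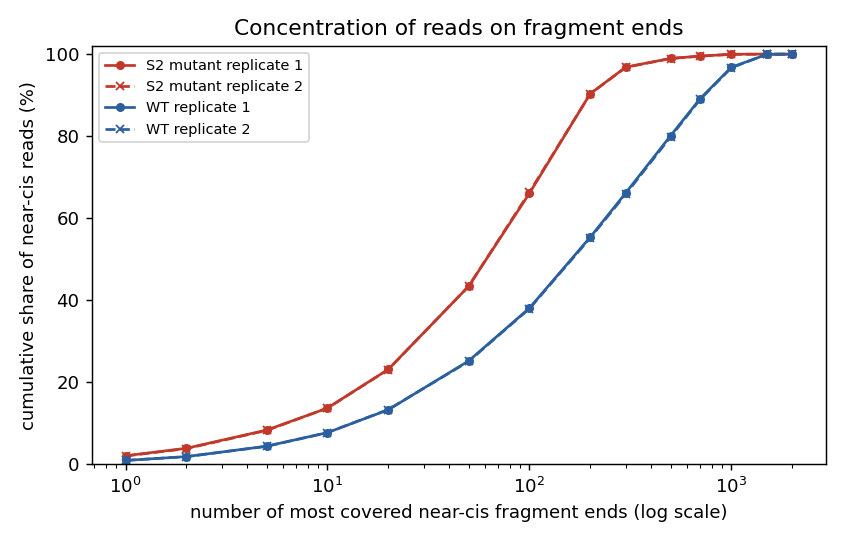
Cumulative share of near-cis reads (%) held by the most covered fragment ends, ranked within each library (log scale), for the 2 S2 mutant and the 2 WT libraries. At 100 ends the S2 mutant curves reach 66.1 and 66.3% and the WT curves 38.1 and 37.9%, and the replicates of each group lie on each other.

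At single ends the profiles of the groups were unlike, while replicates were alike. Over the 3008 ends, log2(reads + 1) correlated at 0.963 between the S2 mutant libraries and at 0.990 between the WT libraries. Between S2 mutant and WT libraries it was 0.480 to 0.494, and between S2 mutant libraries and those of the other mutants 0.561 to 0.616. The other mutants correlated with WT at 0.522 to 0.548, so a low correlation with WT was shared by all mutants. These are correlations across ends, which share libraries and depth, and are given as a description. Counts of the 2 libraries of a group were not equal within sampling noise. Chi-square values were 1.86 per degree of freedom over 395 ends in the S2 mutant and 1.32 over 1354 ends in WT. These ends had an expected count of at least 5 in each library. Over all ends with a read, the values were 1.25 over 1299 ends and 1.27 over 1769 ends, in the same order. Separate amplifications of 1 template could also give such values, so they do not show that the libraries are separate samples. They were counted as 2 because the labels list them as 2.

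At a minimum of 0.02% of near-cis reads in both libraries, 317 ends were counted in the S2 mutant and 898 in WT, with 221 in common. The common ends were 69.7% of the S2 mutant set and 24.6% of the WT set. Of the 317 S2 mutant ends, 20 (6.31%) had 0 reads in both WT libraries. Of the 898 WT ends, 167 (18.6%) had 0 reads in both S2 mutant libraries, and they held 7.29% of WT near-cis reads. Most ends used in the S2 mutant were thus also used in WT, whereas most of those used in WT fell under the minimum in the S2 mutant.

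The most covered ends of the 2 groups were different ones. The top S2 mutant end, at 139452240 and 9.0 kb telomeric, had 2.07 and 2.00% of near-cis reads, against 0.358 and 0.346% in WT. That at 139430463, 12.8 kb centromeric, had 1.82% in each library, against 0.397 and 0.410%. That at 139450835 had 1.69 and 1.67%, against 0.0837 and 0.0828%, a 20.2-fold difference. The end at 139404224, 39.0 kb centromeric and between S2 and the promoter, had 1.51 and 1.37%, against 0.139 and 0.143%, and that at 139438165 had 1.24 and 1.38%, against 0.602 and 0.638%. All 5 also had more in the S2 mutant than in any library of the other mutants, whose highest shares were 1.24, 0.861, 1.05, 1.03 and 0.289%. These ends were chosen for their high S2 mutant shares, so their direction is no finding.

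The converse held for 4 of the 5 top ends of WT, which were chosen for their high WT shares. The end at 139448456, 5.2 kb telomeric, had 0.0542 and 0.0407% in the S2 mutant, against 0.927 and 0.939% in WT, and the other mutants had 0.828 to 1.06%. The end at 139462909 had 0.0201 and 0.0145%, against 0.854 and 0.883% in WT, a 50.1-fold difference. The end at 139512777, 69.5 kb telomeric, had 0.0294 and 0.0203%, against 0.931 and 0.909%. The end at 139459231 had 0.194 and 0.235%, against 0.934 and 0.880%. The last, at 139467603, went the other way, with 1.01 and 1.10% in the S2 mutant, against 0.762 and 0.764% in WT. Bins with near-equal totals could thus be made of different ends: the bin from 139460001 did not pass the test, yet it holds both the end at 139462909 and that at 139467603.

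The 5-kb S2 window had the same character. It held 3.69 and 3.75% of near-cis reads in the S2 mutant, against 2.50 and 2.48% in WT, so the total of the window was higher. Of its 18 ends, 9 were lower and 9 higher in the S2 mutant than in WT. A read was found at 16 of them in each S2 mutant library, against all 18 in each WT library. In the S2 mutant the end at 139386561 gave 27.6 and 30.3% of the window's reads, while in WT the leading end was at 139383372, with 15.0 and 14.2%. The 3 leading ends gave 59.0 and 61.8% of the window in the S2 mutant, against 35.7 and 35.4% in WT. Over the 20 kb around S2, 34 and 33 of 54 ends were under 0.02% in the S2 mutant, against 12 in each WT library. The near-equal share of the 20 kb therefore came from fewer, more covered ends in the S2 mutant. Counts per end do not show whether the S2 sequence was altered, so the mutation itself was not checked here.

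Over the rest of chromosome 9 the S2 mutant had a smaller share of its contacts than WT. Of 97 bins of 1 Mb, scaled to reads outside 5 kb, 95 (97.9%) differed from WT with edgeR's quasi-likelihood test at an adjusted p under 0.05. Only 5 (5.15%) were higher and 90 (92.8%) lower in the S2 mutant, 86 bins (88.7%) differed at least 2-fold, and in 96 bins (99.0%) the groups did not overlap. Against the other mutants 62 bins (63.9%) differed, 22 (22.7%) higher, 40 (41.2%) lower and 49 (50.5%) at least 2-fold. Scaled to the far reads alone, 11 were higher and 76 lower than in WT. With TMM factors 25 were higher and 61 lower, and with DESeq2 30 were higher and 58 lower, so the lower bins were in the majority under each scaling.

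As shares of all reads outside 5 kb, each part of the rest of the chromosome held less in the S2 mutant than in WT. The short arm held 0.278 and 0.289% of reads outside 5 kb in the S2 mutant, against 1.98% in each WT library, 6.97-fold more in WT. The long arm over 10 Mb centromeric held 1.78 and 1.76%, against 8.48 and 8.61%. From 2 to 10 Mb centromeric the S2 mutant had 5.77 and 5.59%, against 11.2% in each WT library, and from 0.5 to 2 Mb it had 4.99 and 5.04%, against 6.29 and 6.25%. Over 0.5 Mb telomeric it had 3.24 and 3.29%, against 5.33 and 5.34%. The log2 ratios in this order were -2.80, -2.27, -0.98, -0.32 and -0.71.

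Part of this direction rests on the scaling. As shares of the far reads alone, the S2 mutant had 1.77% on the short arm and 11.0% on the long arm over 10 Mb away, against 5.94 and 25.7% in WT. It had more than WT in the other 3 parts, with 35.5% from 2 to 10 Mb centromeric, 31.3% from 0.5 to 2 Mb and 20.4% telomeric, against 33.5, 18.8 and 16.0% in WT.

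As shares of reads outside 5 kb the other mutants were also below WT in each of these parts, and the S2 mutant did not lie on 1 side of them. They had 0.178 to 0.254% on the short arm, under the S2 mutant, and 2.39 to 3.48% on the long arm over 10 Mb away, above it. From 0.5 to 2 Mb they had 2.76 to 5.07%, a range that holds the S2 mutant. As shares of far reads the other mutants, too, were above WT from 0.5 to 2 Mb (19.0 to 29.7%) and telomeric (16.6 to 22.4%).

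**Figure D4:**
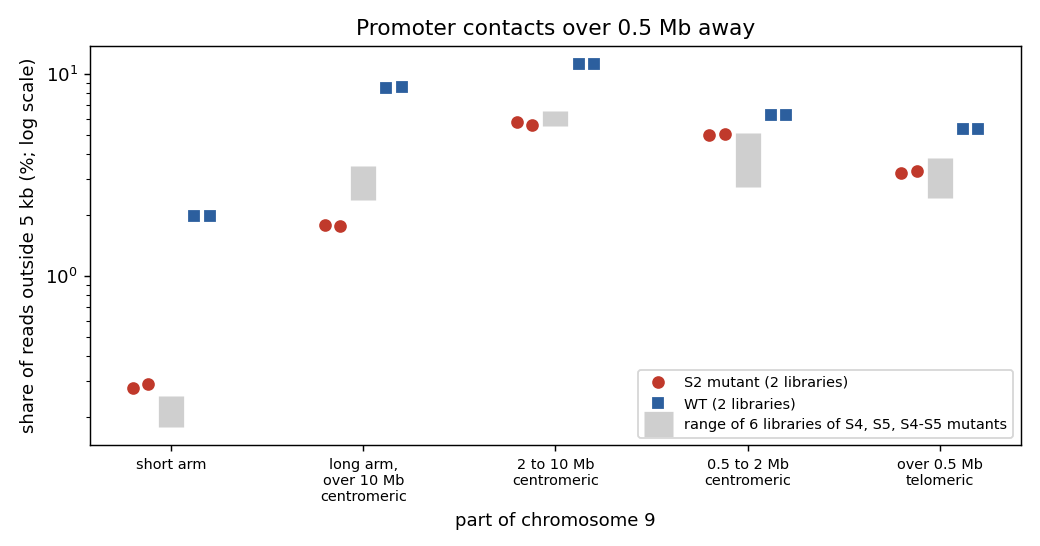
Share of reads outside 5 kb (%, log scale) in 5 parts of chromosome 9 over 0.5 Mb from the viewpoint, with the 2 S2 mutant libraries as circles, the 2 WT libraries as squares and the range of the 6 libraries of the other mutants in grey. The S2 mutant lies below WT in each part, by most on the short arm (0.278 and 0.289% against 1.98%).

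Few reads lay behind each of these far bins in the S2 mutant. Its libraries held 12349 and 13068 reads over 500 kb away, against 105958 and 175165 in WT, and at 908 and 924 ends, against 3154 and 3346. At a common depth of 12349 reads these were 908 and 888 ends in the S2 mutant, against 2171 and 2164 in WT. In 8 of the 97 bins both S2 mutant libraries had 0 reads. Those with the lowest fitted values were the bins from 19000001, 27000001 and 31000001, with 0 reads in the S2 mutant against 299, 496 and 393 in WT. When 3 reads are allowed over both S2 mutant libraries, they were at least 18.8-, 31.1- and 24.6-fold lower. A fitted value at 0 reads depends on the prior count and sets no rank. The bin from 102000001, picked after its values were seen, had 3 reads against 2253. Its mean shares were 0.00187% in the S2 mutant and 0.266% in WT, and its fitted value was 138-fold lower. In the 3 bins with 0 reads named above, the other mutants also had little, at most 0.00594% of reads outside 5 kb in any library.

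Of the 5 bins that were higher, the 3 with the largest fold changes are given here. The bin from 18000001, on the short arm, had 0.146 and 0.129% in the S2 mutant, against 0.0395 and 0.0422% in WT (log2 fold change 1.74 ± 0.15, adjusted p 4.67e-26 with edgeR's quasi-likelihood test). The other mutants had at most 0.0136% there. The bin from 93000001 had 0.268 and 0.252%, against 0.125 and 0.121% (log2 fold change 1.08), and at most 0.0629% in the other mutants. The bin from 132000001, 6.9 Mb away, had 1.35 and 1.31%, against 1.05 and 1.06% (log2 fold change 0.34). The first 2 rest on 218 and 412 S2 mutant reads, and the third turned to -1.20 when the most covered ends were capped.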

How the data were processed

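The authors deposited 1 table per library with a read count for every restriction fragment end on chromosome 9, per the file headers. These counts are whole numbers and were not normalized. In the submitters' processing notes deepTools and hg19 are named. Aligner, read filters and counting tool were not given in the sources used here. Per the labels' protocols, DpnII was the first enzyme and NlaIII or CviQI the second, and 2 libraries were sequenced per condition. The deposited scaled and smoothed columns were not used.

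Of 382657 ends, 26 lay within 5 kb of the viewpoint centre and were left out, since uncut and self-ligated fragments dominate there. The 3008 ends within 500 kb were added up over fixed 10-kb bins (library size: near-cis reads) and the others in 1-Mb bins (library size: reads outside 5 kb). Bins with a mean under 10 reads over the 10 promoter libraries were left out. Bins were tested two-sided with edgeR 4.0.16 (glmQLFit, glmQLFTest; R 4.3.3) in a fit of the 10 promoter libraries, with Benjamini-Hochberg adjustment over all bins of a contrast and a threshold of 0.05. DESeq2 1.42.0 was an alternative. Region shares were compared by an exact permutation test. The fits were tested on simulated counts in which most bins were unchanged. In the data nearly every bin was called, so that test does not bear on the calls reported here.

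The bins named were those holding S2 and S4, the 4 on each side of the viewpoint bin, the 5 over 50 kb away with the largest WT share, the 5 most changed in each direction, and in each region the most changed one with at least 0.2% of WT reads. The 3 most changed 1-Mb bins in each direction and the 5 most covered ends of each group were also named. Members, regions and rules were chosen with earlier results of these data known. No hg19 sequence was used here, so none is shown for S2, S4 or the bins.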

Additional observations from a re-analysis of the deposited data

How the results depend on the processing

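The share of reads between S2 and the promoter was higher than in WT under every alternative run on reads. Its log2 ratio of 0.42 became 0.75 when scaled to all reads outside 5 kb, 0.27 against the other mutants, 0.55 with a mask of 20 kb, 0.34 in a window of 250 kb, 0.51 on non-blind ends, 0.39 with ends capped at the 95th percentile, 0.50 as covered ends and 0.38 as covered ends at a common depth. The last setting was chosen after seeing the data. Both settings on covered ends are shares of all covered ends: the region itself had 104 covered ends in the S2 mutant at a common depth, against 114 in WT, so they do not show a gain there. In the same order of settings, the other regions gave these log2 ratios. The stretch from the promoter to S4 gave 0.50, -0.13, 0.11, 0.091, 0.12, 0.35, 0.59 and 0.46. The 20 kb around S2 gave 0.36, -0.18, 0.17, -0.045, 0.16, -0.14, 0.49 and 0.40. The 20 kb around S4 gave 0.11, -0.48, -0.082, -0.30, -0.35, -0.081, 0.27 and 0.21. The centromeric flank of S2 gave -0.28, -0.024, -0.48, -0.69, -0.51, -0.72, -0.042 and -0.063. The telomeric flank of S4 gave 0.10, -0.010, -0.095, -0.31, -0.47, -0.29, 0.089 and 0.067. The far centromeric region gave 0.063, 0.48, -0.13, 0.25, -0.27, -0.27, -0.38 and -0.29. The far telomeric region, which moved by less than 1 SD on non-blind ends, gave -0.28, 0.044, -0.47, -0.52, -0.66, -0.43 and -0.37 under the others. Of these 7 regions, only the centromeric flank of S2 kept its sign under each of these settings. The comparison with the other mutants replaces WT as the reference. Against WT, the stretch from the promoter to S4 and the far telomeric region also kept their signs under each setting. The near-cis share difference of 17.3 points was 0.206 against the other mutants, 17.8 with a mask of 20 kb, 19.1 and 15.2 in windows of 250 kb and 1 Mb, 14.8 on non-blind ends, 18.9 with capped ends and 19.2 as covered ends.

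Counts of near-cis bins called (total, higher, lower, at least 2-fold) were 183, 50, 133 and 132 with bins of 5 kb, 46, 16, 30 and 21 with bins of 20 kb, 47, 16, 31 and 18 in a window of 250 kb, and 185, 47, 138 and 139 in a window of 1 Mb, where other numbers of bins were tested. With DESeq2 49 were higher and 41 lower. As covered ends, 0 of 58 bins passed in any direction with edgeR (8 at an unadjusted p under 0.05, no other tool run). Counts of 1-Mb bins were 53, 2, 51 and 46 with bins of 2 Mb, 62, 22, 40 and 49 against the other mutants, and 9, 0, 9 and 7 as covered ends. Higher 1-Mb bins numbered 11 scaled to far reads, 25 with TMM, 30 with DESeq2 (58 lower) and 2 with capped ends.

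Named bins reversed as follows. With DESeq2 the bins from 139390001, 139470001, 139480001, 139490001 and 139510001 gave 0.28, 0.83, 0.19, 0.68 and 0.21. With TMM those from 139470001 and 139490001 gave 0.40 and 0.25, and scaled to all reads outside 5 kb that from 139470001 gave 0.078. Against the other mutants those from 139450001, 139490001 and 139520001 gave -0.060, 0.16 and -0.36. The bin from 139460001 gave -0.19 on non-blind ends and -0.053 in a window of 250 kb, and that from 139710001 gave -4.14 on non-blind ends. As covered ends those from 139390001, 139470001, 139480001, 139490001, 139510001 and 139630001 gave 0.44, 0.57, 0.65, 0.57, 0.51 and -0.69. The 1-Mb bin from 132000001 gave -1.20 with capped ends and -0.45 as covered ends. Other named bins kept their direction but no longer passed. Among 10-kb bins these were 12 as covered ends and 2 on non-blind ends. Capped ends, a window of 250 kb and the other mutants as reference gave 1 each. Among 1-Mb bins they were 3 against the other mutants and 1 with capped ends. A 10-kb bin that had not passed did so under some settings, among them DESeq2 and TMM. The cause of these changes was not tested. Named bins have no value on a grid of another bin size.

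Leaving out each library in turn gave 89 to 91 near-cis bins called and 94 to 95 1-Mb bins, and log2 ratios of 0.417 to 0.419 between S2 and the promoter. The bin from 139880001 moved most, to -5.51 without S2 mutant replicate 1 and -7.39 without replicate 2. Among named bins only that from 139520001 lost its call when a library was left out, namely S2 mutant replicate 2 (0.06) or WT replicate 2 (0.09). With the replicate number as a block, 91 and 95 bins were called, as without it. The differences between replicates 1 and 2 correlated little between the S2 mutant and WT (r = 0.06 over near-cis bins and 0.05 over 1-Mb bins). With a single such difference per group, this cannot show whether the numbers pair the samples.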
